A study of Tetradesmus deserticola with 10 samples.

Results

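The wet states before and after drying were compared in a desert green alga: cells collected 1 h after water was returned to fully dried drops (Rehydrated) and cells collected before any drying (Hydrated). Each state had 2 RNA-seq libraries, so 4 of the 10 libraries of the series form the comparison, and they were chosen by their stage label alone. A further 2 libraries of dried cells (Dry) served to ask how much of the difference between the wet states was already there before rewetting. The organism is strain Sni-2 of Tetradesmus deserticola, which the submitters call Acutodesmus deserticola, and all groups were cells from cultures 6 weeks old, grown in BBM+WH medium. Drops of 40 µL were placed on cover glass. Hydrated drops were taken straight away, Dry drops were flattened spots taken about 24 h after the start, including 11 h in the drying chamber beyond full flattening, and Rehydrated drops had been dried and then rewetted. The Early (2.5 h, volume loss of 25%) and Late (7.5 h, volume loss of 60%) libraries of partly dried drops entered the fit and are given here as levels. No drops held wet for the same hours were among the libraries, so an effect of having been dry cannot be told apart from elapsed time. Nothing in the labels tells whether paired libraries of a stage derive from independent cultures, so p-values measure no more than how far these libraries vary, possibly for technical reasons.

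Desiccation-tolerant algae let their cell water equilibrate with dry air, stop metabolism while dry and resume it after rewetting. The messenger RNA present shortly after rewetting can be RNA kept through the dry period, RNA made since water returned, or what is left after decay, and a steady-state RNA measurement does not separate synthesis from decay. In bulk RNA, fewer cells carrying a transcript and less of it per cell cannot be told apart. The genes are de novo assembled and carry assembly identifiers only. No gene name accompanies an identifier in the files, so no function, pathway or sequence can be attached to a gene here, and the identity of the cells could not be checked with marker genes. Groups of genes are therefore described by their course over the stages, their abundance and their place in the assembly.

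The table holds 20783 assembled genes, of which 9856 had enough counts for a test. The Hydrated libraries held 1917825 and 1398635 counts, the libraries of Dry 1453220 and 1594106, and those of Rehydrated only 644705 and 826632. The 10927 genes not tested took 1.88% and 2.77% of the counts in Hydrated, 0.702% and 0.765% in Dry, and 7.02% and 2.56% in Rehydrated replicates 1 and 2. The first Rehydrated library thus spread more of its counts over weakly covered genes than any other library. By one measure the Rehydrated libraries also differed more from each other than those of other stages: among genes with a mean of at least 50 CPM in the stage, the median difference between the libraries was 0.73 on the log2 scale in Rehydrated, against 0.28 in Hydrated and between 0.29 and 0.33 in Early, Late and Dry. By composition the 2 Early libraries lay further apart than the 2 Rehydrated libraries. The test estimated each gene's spread over all 10 libraries together, so it can understate the error in Rehydrated. CPM here is a gene's count per 1e6 counts in the tested genes of its library, scaled with TMM factors (trimmed mean of M values). These factors correct for a few genes taking much of a library. The setting called library totals below uses the counts in tested genes without such a factor.

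By composition, the rewetted cells were no nearer to the wet start than the dry cells were. Composition was compared as the share of counts that would have to move to other genes to turn one library into another, a measure that needs no scaling factor. The 4 pairs of a Hydrated and a Rehydrated library were 49.2%, 46.0%, 43.7% and 42.0% apart, with a mean of 45.2%. Hydrated and Dry libraries were between 37.1% and 42.3% apart, and Dry and Rehydrated libraries between 34.4% and 43.8%. For scale, the 2 Hydrated libraries were 12.9% apart, the 2 Dry libraries 10.5%, the 2 Late libraries 18.4%, the 2 Rehydrated libraries 22.3% and the 2 Early libraries 25.3%, and Hydrated lay 21.2% from Early and 23.4% from Late on average. All pairs of Hydrated and Rehydrated libraries therefore lay further apart than either stage's own libraries, and 3 of the 4 lay beyond every pair of Hydrated and Dry libraries. Rehydrated replicate 2 was nearer to Dry (34.4% and 34.5%) than replicate 1 was (42.6% and 43.8%). With all libraries thinned to 644686 counts the mean distance of Hydrated from Rehydrated was 45.5%. No test was made of these distances, and 2 against 2 libraries cannot reach an exact two-sided permutation p below 0.333.

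**Figure D1:**
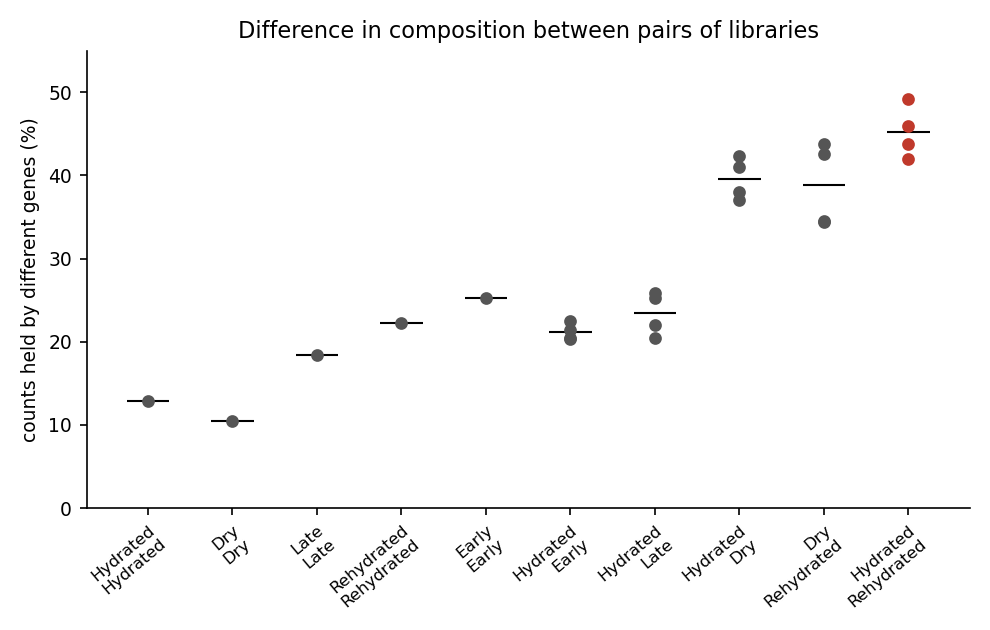
Difference in composition for pairs of libraries; the vertical axis is the percentage of counts held by different genes, each point is 1 pair of libraries and each bar the mean of its pairs. Hydrated and Rehydrated pairs (red) sit between 42.0% and 49.2%, above the pairs within a stage, which sit at 10.5% (Dry), 12.9% (Hydrated), 18.4% (Late), 22.3% (Rehydrated) and 25.3% (Early).

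The most abundant transcripts changed places as well. When genes were ranked by mean share of counts, 52 of the first 100 in Hydrated were also among the first 100 in Rehydrated, compared with 60 in Dry, 79 in Late and 84 in Early. The lists of Dry and Rehydrated had 66 genes in common. The 100 genes of the Hydrated list took 52.7% ± 0.155 (SD, n = 2) of the counts in Hydrated, 55.2% ± 2.75 in Dry and 36.7% ± 7.85 in Rehydrated. These genes as a group thus kept their share in the dry cells and held a smaller one after rewetting. The 100 genes of the Rehydrated list, in turn, took 46.5% ± 0.419 in Hydrated and 49.2% ± 5.50 in Rehydrated, but 63.2% ± 1.97 in Dry. Each list was picked on the levels of its own stage, so its share in that stage is a description.

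Gene by gene, 3318 of the 9856 genes tested, 33.7%, differed between Rehydrated and Hydrated in edgeR's quasi-likelihood test at a Benjamini-Hochberg adjusted p of 0.05. Of these, 1570 (15.9% of those tested) were higher after rewetting and 1748 (17.7%) lower. The median log2 fold change was 2.14 for the higher genes, a 4.39-fold difference, and -2.09 for the lower genes, a 4.26-fold difference. Nearly all called genes differed at least 2-fold, 1560 of the higher and 1741 of the lower ones. With 2 libraries per stage smaller differences could hardly be called: the smallest called log2 fold changes were 0.92 and -0.92. Choosing genes by the call can also raise the medians above, which describe called genes only. Differences of at least 8-fold were found for 339 higher and 430 lower genes, and of at least 16-fold for 133 and 202. A total of 14 higher genes had 0 counts in both Hydrated libraries, and 63 lower genes had 0 counts in both Rehydrated libraries, where the smaller depth makes a 0 more likely. In 1558 of the higher and 1745 of the lower genes the libraries of the 2 stages did not overlap in CPM; such separation occurred in 68.4% of all genes tested and by itself says little. The scaling centres the genes, so the balance of rises and falls is not itself a result: with upper-quartile factors 1842 genes were higher and 1394 lower, with library totals 1183 and 1260, and without a filter on low counts 1185 and 2099. With all 4 scalings (TMM, RLE, upper quartile and library totals) the call was the same for 1172 higher and 1194 lower genes, and for none was it opposite.

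**Figure D2:**
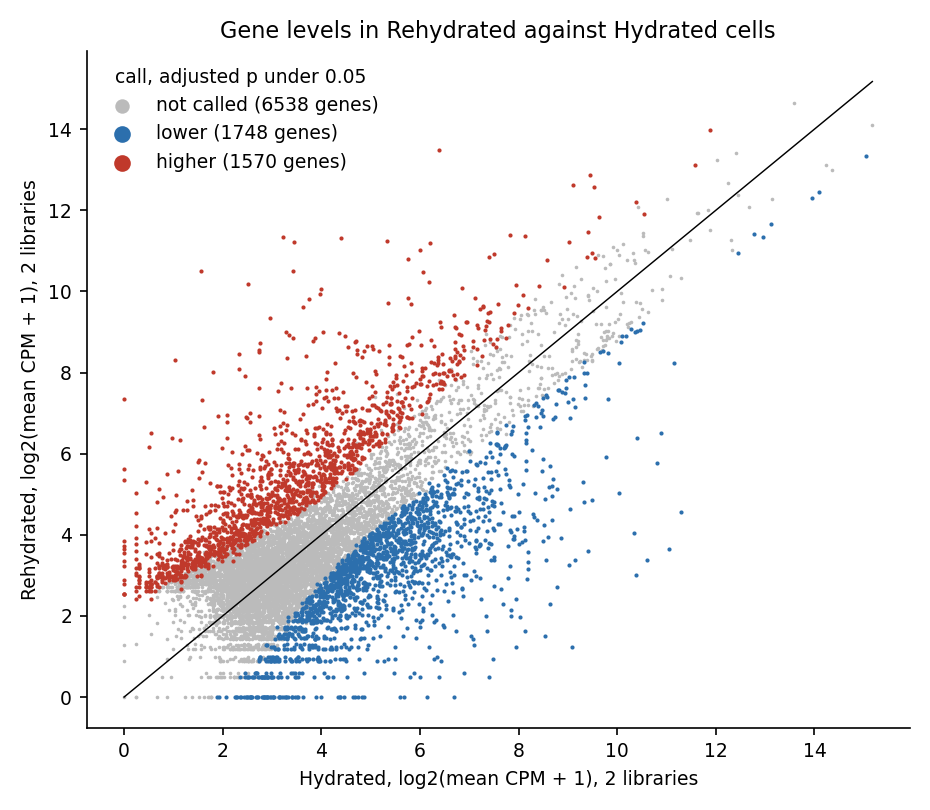
Level of each of the 9856 genes tested in Rehydrated (vertical) against Hydrated (horizontal), both as log2 of the mean CPM of 2 libraries plus 1; the line marks equal levels. The 1570 higher genes (red) and 1748 lower genes (blue) lie on either side of 6538 genes that were not called (grey).

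The number of calls rested in part on Hydrated replicate 1: without it 791 genes were higher and 1095 lower. The calls were then read in a library that had not been used to make them. Of 1062 higher genes called without Rehydrated replicate 2, 95.6% lay above both Hydrated libraries in that left-out library, against 41.7% of all genes tested. Of the 1456 lower genes called the same way, 96.2% lay below both Hydrated libraries, against 47.3% of all genes. For genes called without Rehydrated replicate 1 the left-out library gave 95.8% of 1269 higher and 96.5% of 1344 lower genes, against 43.6% and 44.0% of all genes. Both Rehydrated libraries thus placed nearly all genes called with the other one on the same side. The same Hydrated libraries chose these genes and set the levels they were read against. This can raise the shares, so the shares over all genes are not an even reference. The TMM factors and the filter had been set with all libraries.

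A gene that was not called is not thereby shown to have returned to its start. The median standard error of the log2 fold change was 0.61 among the 6538 genes not called. For only 257 of them did the 95% interval of the fitted difference lie within 2-fold in both directions. At an unadjusted p of 0.05, 4388 genes would have passed.

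Much of what differed after rewetting was already different in the dry cells. The 1570 genes higher in Rehydrated than in Hydrated took 6.24% and 7.67% of the counts in the Hydrated libraries. In the Rehydrated libraries they took 37.7% and 33.8%. In the Dry libraries, which enter neither side of that contrast, they took 39.9% and 37.7%. Dry counts did enter the gene filter, the scaling factors and the estimate of spread behind the calls. In Early and Late the higher genes had stayed between 5.44% and 6.92%. Their combined share thus stood at the level of the wet start through a volume loss of 60%. It lay some way above that level in the dry drops and also after 1 h of water. The sum was not held by the same genes throughout. A group of 407 genes, called back toward the start with TMM, took 34.3% and 33.3% in Dry and 17.8% and 19.4% in Rehydrated. Other genes of the list held more after rewetting than in Dry. The 1748 lower genes took 37.6% and 34.1% in Hydrated, between 30.7% and 33.8% in Early and Late, 15.5% and 15.2% in Dry, and 8.11% and 9.72% in Rehydrated. For the genes of this list the dry libraries stood between the wet states, an order that did not hold for all lists.

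**Figure D3:**
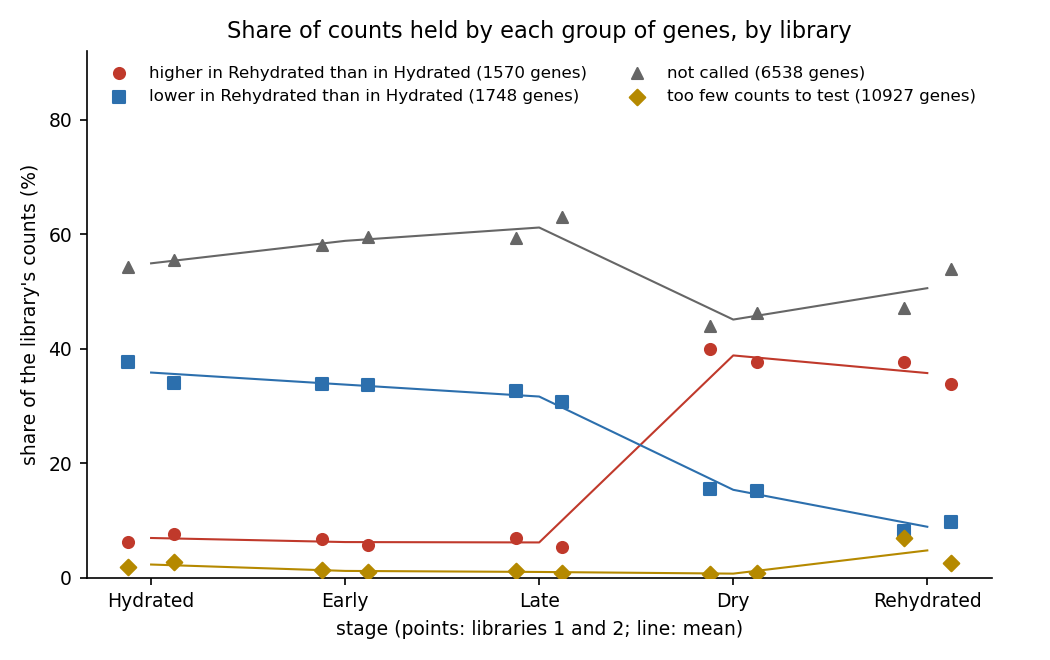
Percentage of each library's counts (vertical) held by genes higher, lower or not called in Rehydrated vs Hydrated and by genes with too few counts to test, over the 5 stages; points are libraries and lines stage means. The higher genes hold 37.7% and 39.9% in Dry, as against 5.44% to 7.67% in the 3 earlier stages, while the lower genes hold 15.2% and 15.5% in Dry and 8.11% and 9.72% in Rehydrated; the order of these last stages turned with the list of genes.

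These shares depend on which abundant genes pass the test. Over 20 settings of the test, the lower genes took from 14.7% to 57.0% of the counts in a Hydrated library and from 1.37% to 35.2% in a Dry library. Without Rehydrated replicate 1 the lower genes took 17.1% and 15.4% in Hydrated and 1.97% and 1.61% in Dry, and without Rehydrated replicate 2 57.0% and 54.2% in Hydrated and 34.3% and 35.2% in Dry. Without Hydrated replicate 1 their share was 15.9% and 14.7% in Hydrated, 1.63% and 1.37% in Dry and 2.34% and 1.95% in Rehydrated. Without Hydrated replicate 2 it was 19.4% and 16.8%, 2.77% and 2.45%, and 3.33% and 2.99% in the same order. Without Dry replicate 1 it was 22.9% and 21.0%, 4.89% and 4.12%, and 5.00% and 4.39%, and without Dry replicate 2 23.9% and 22.1%, 5.47% and 4.58%, and 5.34% and 4.82%. In Rehydrated it was 3.16% and 2.07% without Rehydrated replicate 1 and 14.4% and 21.3% without replicate 2, and in a fit of the 4 libraries of Hydrated and Rehydrated alone the lower genes took 2.201% and 1.864% in Dry and 3.38% and 2.76% in Rehydrated. Dry thus lay below Rehydrated in the last of these fits and without either Hydrated library or Rehydrated replicate 1, and above it in the list of all 10 libraries and without Rehydrated replicate 2. The higher genes took from 2.71% to 12.6% in Hydrated and from 18.6% to 46.3% in Dry. The higher genes took 11.4% and 12.6% in Hydrated and 46.3% and 45.8% in Dry without Rehydrated replicate 1, and 2.71% and 2.86% in Hydrated and 21.6% and 18.6% in Dry without Hydrated replicate 1. Without Hydrated replicate 2 they took 3.99% and 6.26% in Hydrated and 33.6% and 32.2% in Dry. In all 20 settings both Dry libraries lay above both Hydrated libraries for the higher genes and below both for the lower genes. The settings reuse the same libraries, and Hydrated levels helped to choose every list, so they are not 20 independent results.

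Fold changes against Hydrated were compared between Dry and Rehydrated, and their order depended on scaling. The Dry libraries held counts in fewer genes, 10332 and 10702 at a depth of 644686 counts against 15595 and 17800 in Hydrated. The median log2 fold change of all genes in Dry vs Hydrated was -0.52 with TMM and -2.29 with library totals. Relative to the median of all genes, the 1570 higher genes had a median log2 difference from Hydrated of 2.16 in Rehydrated and 2.82 in Dry. A value relative to all genes does not depend on the scaling factors, by construction. For the 1748 lower genes the relative medians were -2.06 in Rehydrated and -1.91 in Dry. Without taking off that shift, the medians of the same 1570 higher genes were 2.14 in Rehydrated and 2.29 in Dry with TMM. In the same order they were 2.155 and 2.361 with RLE, 2.18 and 0.51 with library totals, and 2.33 and 2.30 with upper-quartile factors. Over each setting's own list of higher genes they were 2.31 and 0.97 with library totals and 2.22 and 2.09 with upper-quartile factors. Such lists gave 2.28 and 2.13 with libraries thinned to equal depth, and 2.17 and 2.17 in a fit of Hydrated, Dry and Rehydrated. Whether the higher genes lay further from the start in Dry or after rewetting therefore depends on the reference chosen. The same Hydrated libraries enter both differences, so deviations of these libraries move both values the same way.

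Counted by call, most of these genes were different in the same direction in both stages. The test of Dry against Hydrated called 2015 genes higher (20.4%) and 2379 lower (24.1%), together 44.6% of the genes tested. Of the 1570 genes higher in Rehydrated, 1030 (65.6%) were also called higher in Dry, and of the 1748 lower genes 1246 (71.3%) were also called lower. These are 51.1% of the 2015 higher and 52.4% of the 2379 lower Dry genes. The comparisons share both Hydrated libraries. When Rehydrated was compared with 1 Hydrated library and Dry with the other, 722 of 1179 higher genes (61.2%) and 875 of 1342 lower genes (65.2%) were called the same way in Dry, and with the Hydrated libraries exchanged 645 of 791 (81.5%) and 804 of 1095 (73.4%). Without Hydrated replicate 1 from either comparison the counts were 655 and 807. With library totals in place of TMM, Dry vs Hydrated had 623 higher and 5732 lower genes, and the shared genes made up 42.9% of 1183 higher and 92.2% of 1260 lower Rehydrated genes. With the call required under all 4 scalings in both comparisons, they made up 504 of 1172 (43.0%) and 902 of 1194 (75.5%). Over the 4 scalings the share of falls that trace back to Dry was between 70.4% and 92.2%, and that of rises between 42.9% and 65.6%. Which share was larger depended on the setting. DESeq2 gave 81.2% of rises and 67.25% of falls, and thinning to equal depth gave 59.3% and 74.0%. Without Dry replicate 1 there were 1584 lower genes in Dry vs Hydrated.

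**Figure D4:**
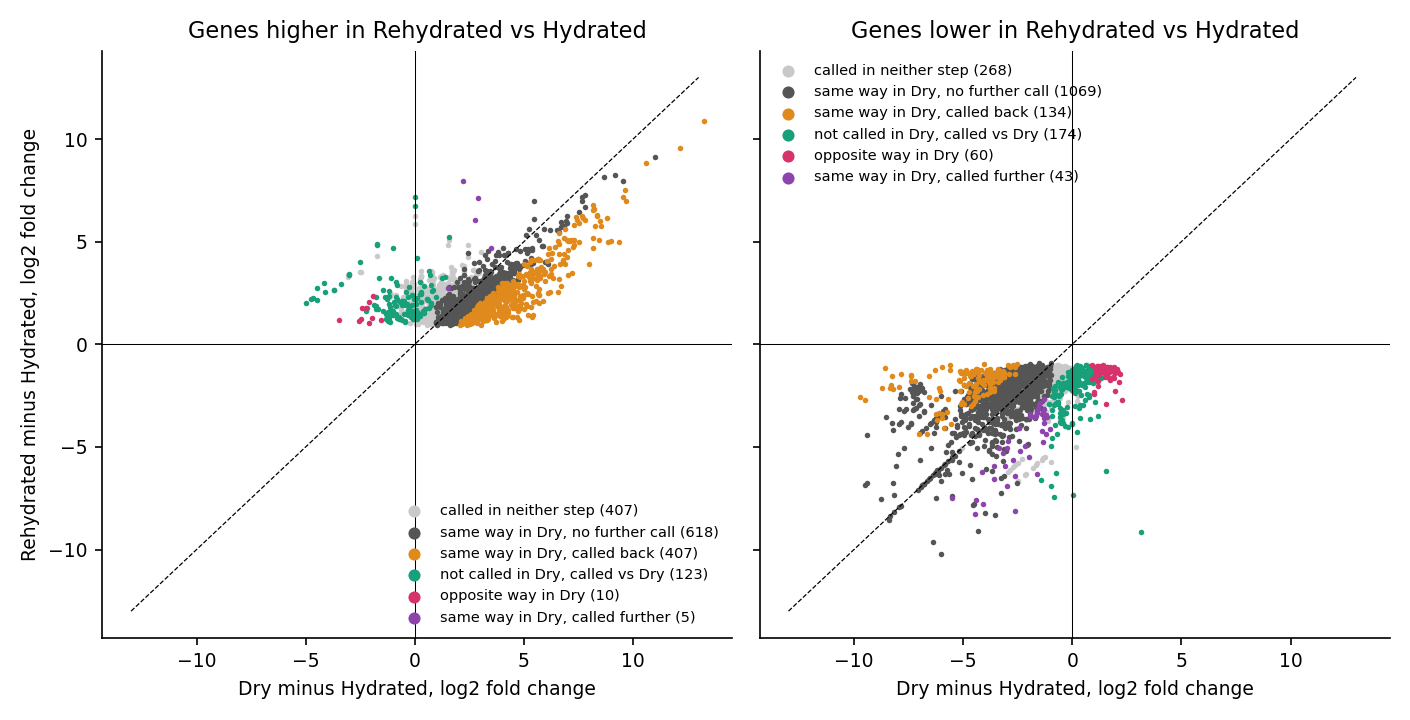
Log2 fold change against Hydrated in Rehydrated (vertical) and in Dry (horizontal) for the genes higher (left) and lower (right) in Rehydrated vs Hydrated, coloured by their calls against Hydrated in Dry and against Dry in Rehydrated; the dashed line marks equal differences, and both axes use the same Hydrated libraries. Most points lie on the same side of 0 on both axes, with 407 higher genes called back toward the start with TMM (orange, below the line).

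Genes were then divided by the direct test between Rehydrated and Dry, which is also the test of whether a gene's differences from Hydrated in the 2 stages are unequal. It called 713 genes higher in Rehydrated (7.23%) and 1330 lower (13.5%), 20.7% of those tested. With library totals the split was 5870 and 221, so the direction of this step depends on scaling. Without Dry replicate 1 it called 281 higher and 856 lower genes, and without Dry replicate 2 361 higher genes.

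With TMM, the largest class was called the same way in Dry and not called between Dry and Rehydrated. In this class were 618 higher and 1069 lower genes. A missing call does not show that they stayed at their Dry level: 81 of the higher (13.1%) and 431 of the lower genes (40.3%) had a fitted difference of at least 2-fold between Dry and Rehydrated, and its median SE was 0.44 and 0.72 on the log2 scale. With library totals the class held 375 higher and 544 lower genes and was the largest in neither direction, with 468 higher genes called after rewetting and 596 lower genes called back. The 618 higher genes of the TMM class had a median of 8.20 CPM in Hydrated, 48.9 in Dry and 38.6 in Rehydrated. Its 1069 lower genes had 30.1, 4.46 and 6.67 CPM. With TMM, a further 407 higher and 134 lower genes were called back toward the start but remained different from it. Their medians were 14.6 CPM in Hydrated, 228 in Dry and 63.4 in Rehydrated for the higher genes, and 59.0, 2.97 and 16.3 CPM for the lower genes. With library totals only 56 higher genes were called back. Of 1172 genes called higher under all 4 scalings, 53 were called lower in Rehydrated vs Dry under all 4. The 407 higher genes called back with TMM held 34.3% and 33.3% of the counts in the Dry libraries and 17.8% and 19.4% in the Rehydrated libraries, as against 3.24% and 3.91% in Hydrated. They thus carried most of the counts that the higher genes held in Dry. Another 5 higher and 43 lower genes moved further from the start on rewetting, the lower ones from a median of 169 CPM in Hydrated to 36.3 in Dry and 8.59 in Rehydrated. Without Hydrated replicate 1 the genes without a called change numbered 379 and 707. The lower genes called back numbered between 69 and 89 with any single library of the 3 stages left out. Without Dry replicate 1 the higher genes called back numbered 263, and the lower genes that moved further 16, or 21 without Dry replicate 2. The 5 higher genes that moved further became 3, 2, 10 and 8 without Dry replicate 1, Dry replicate 2, Rehydrated replicate 1 and Rehydrated replicate 2.

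A smaller class was not called against the start in the dry cells and was called against both earlier states after rewetting. In 123 higher and 174 lower genes Dry vs Hydrated was not called and Rehydrated differed from both Hydrated and Dry in the same direction. The 123 higher genes had medians of 7.81 CPM in Hydrated, 5.29 in Dry and 28.5 in Rehydrated, and together held at most 1.42% of the counts in a Rehydrated library. The 174 lower genes were abundant: their medians were 54.9 CPM at the start, 80.4 and 77.7 in Early and Late, 54.1 in Dry and 14.2 after rewetting, and held 12.1% and 10.9% of the Hydrated counts, between 12.6% and 13.5% in Early and Late, 6.011% and 5.995% in Dry and 2.93% and 4.03% in Rehydrated. In shares of counts these genes stood lower in Dry than in Hydrated already, and lower again after rewetting. The 123 higher genes numbered 47, 80, 56, 72 and 73 without Hydrated replicate 1, Hydrated replicate 2, Dry replicate 1, Dry replicate 2 and Rehydrated replicate 2, and the 174 lower genes 105 without Rehydrated replicate 1. With library totals the numbers were 468 and 78.

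In 60 genes that were lower after rewetting, Dry had been higher than Hydrated. Their medians rose from 286 CPM in Hydrated over 473 in Early and 527 in Late to 963 in Dry and stood at 112 in Rehydrated, so they were among the abundant transcripts. They held 9.995% and 9.05% of the counts in Hydrated, 8.80% and 8.65% in Dry and 2.46% and 3.64% in Rehydrated. Measured as shares they were thus not above the start in Dry, and with library totals none of the lower genes was called the opposite way in Dry. The number also rested on the libraries: it was 6, 5, 32, 29, 21 and 153 without replicates 1 and 2 of Hydrated, Dry and Rehydrated in turn. The reverse course, lower in Dry and higher after rewetting, was called in 10 genes, and in 4, 4, 5, 18 and 5 without Hydrated replicate 1, Hydrated replicate 2, Dry replicate 2, Rehydrated replicate 1 and Rehydrated replicate 2. For the remaining 407 higher and 268 lower genes neither step was called, and their medians in Dry (5.44 and 8.26 CPM) lay between those of Hydrated (2.81 and 14.6) and Rehydrated (12.6 and 3.98). Without Hydrated replicate 1, Rehydrated replicate 1 and Rehydrated replicate 2 these were 85, 166 and 222 higher genes and 140, 177 and 125 lower genes, and without Dry replicates 1 and 2 541 and 467 lower genes.

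Seen from the dry state, some genes were called back to the start, in numbers that depended on scaling. Of the 2015 genes higher in Dry, 570 (28.3%) were called down again and were not called against Hydrated; their median log2 difference from Hydrated was 2.01 in Dry and 0.04 in Rehydrated. Of the 2379 genes lower in Dry, 357 (15.01%) came back in this way, from a median of -3.05 to -0.16. Another 355 (17.6%) and 766 (32.2%) were called in neither Rehydrated vs Hydrated nor Rehydrated vs Dry and lay in between, with medians of 0.83 and -0.83 in Rehydrated. Over the 4 scalings the share that came back was between 6.42% and 29.0% of the rises and between 14.2% and 60.4% of the falls. It was larger for rises with TMM, RLE and upper-quartile factors and larger for falls with library totals, where 40 of 623 rises and 3461 of 5732 falls came back. The difference between rises and falls was not tested.

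The genes that differed were not spread evenly over abundance. Genes tested were ranked by their mean CPM in the 4 Early and Late libraries, which are outside the contrast. Among the 2464 most abundant genes, 980 (39.8%) were lower after rewetting and 383 (15.5%) higher. Among the 2464 least abundant genes, 550 (22.3%) were higher and 88 (3.57%) lower. Weakly expressed genes that enter the test only through high Rehydrated or Dry counts had to differ, and falls from low counts are hard to detect, and the part of either in these shares was not tested. Among the 100 most abundant genes in Early and Late, 20 were lower, 5 higher and 75 not called, and their median log2 fold change was -0.82.

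Gene length told little. The relative length of 9469 genes was taken from the ratio of counts to the length-corrected signal that the authors deposited; it is given relative to the median gene. It had a median of 0.93 in higher, 0.90 in lower and 0.95 in other genes. In quartiles from the shortest to the longest genes, 38.2%, 32.5%, 30.5% and 35.9% were called. Genes whose counts were not whole numbers in some library, because a read matched several assembled genes and was divided among them, were called higher more often: 343 of 1478 (23.2%), compared with 1227 of 8378 (14.6%) of the others. For falls the shares were 19.7% and 17.4%.

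Genes from the same part of the assembly were compared for direction. Identifiers were grouped by the number after DN, whatever the c number that follows it. Genes grouped in this way can be copies of a gene family or pieces of a transcript, and were not taken as independent. Of 1455 numbers with at least 2 tested genes, 348 had at least 2 called. In 144 of these all called genes were higher, in 141 all were lower, and in 63 both directions occurred. No reference for these counts was computed, so they do not show that such genes move together more than others do.

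A total of 4 genes are given as examples. They are the largest difference in each direction among genes already changed in Dry and among genes that TMM called only on rewetting. Picked as extremes, they do not stand for the typical gene of a class, and not every class has an example. The gene with 0 counts in Hydrated and the one with 0 in Rehydrated are given by lower bounds. The first, TRINITY_DN187552_c0_g1, gave 0 counts in either library of Hydrated, 4 and 7 at the Early stage, 10 and 22 at the Late stage, 552 and 548 in Dry, and 158 and 192 after rewetting. It was thus unseen at the start, appeared in small numbers during drying and was still abundant after 1 h of water. In CPM it stood at 835 ± 33.7 (SD, n = 2) in Dry and 162 ± 41.7 in Rehydrated. With a floor of 3 counts per library for the wet start, it was at least 131-fold higher in Rehydrated than in Hydrated with TMM and at least 135-fold with library totals (edgeR adjusted p = 1.66e-08). From Dry to Rehydrated it fell by 2.37 on the log2 scale (SE 0.429, edgeR adjusted p = 0.000427). With library totals the log2 difference of that step was -0.54 and did not pass (edgeR adjusted p = 0.225). Its counts were whole in all libraries.

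TRINITY_DN173637_c4_g1 was weakly expressed until water returned. It had 9 and 7 counts in Hydrated, 5 and 14 in the Early libraries, 1 and 5 in Late, 7 and 6 in the dried cells, and 216 and 66 after rewetting. The Rehydrated libraries lay above all others, although they differed from each other, at 181 and 65.9 CPM. Its level was 3.24 ± 0.0259 CPM in Hydrated, 9.85 ± 0.625 in Dry and 124 ± 81.6 in Rehydrated. The log2 fold change was 5.22 against Hydrated (SE 0.557, edgeR adjusted p = 3.92e-07) and 3.64 against Dry (SE 0.572, adjusted p = 9.82e-05), and that of Dry vs Hydrated, 1.58, did not pass (adjusted p = 0.0927). With library totals the values were 5.45 against Hydrated, 5.64 against Dry and -0.20 for Dry vs Hydrated (edgeR adjusted p = 0.832). Without Rehydrated replicate 1 the value against Hydrated was 4.31. Its counts were not whole in 9 of the 10 libraries, so its reads are shared with another assembled gene and its level is uncertain.

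TRINITY_DN181425_c3_g1 was lost during drying and did not come back. Its counts were 450 and 95 at the start, 441 and 250 at the Early stage, 75 and 32 at the Late stage, 2 and 0 in Dry, and 0 in both Rehydrated libraries. The Hydrated libraries differed widely, at 161 and 44.2 CPM, and the counts in Dry and Rehydrated were at or near 0. With a floor of 3 counts per library it was at least 40.3-fold lower in Rehydrated than in Hydrated (edgeR adjusted p = 1.88e-06), or at least 16.2-fold against Hydrated replicate 2 alone. Its counts were not whole in 2 libraries.

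TRINITY_DN176807_c7_g1 was lowest after rewetting, and whether it was already lower in the dry state depended on scaling. Hydrated libraries gave 2644 and 736 counts, Early libraries 2206 and 807, Late libraries 522 and 257, Dry libraries 276 and 180, and Rehydrated libraries 34 and 26. The level was 645 ± 427 CPM in Hydrated, 344 ± 87.4 in Dry and 27.2 ± 1.83 in Rehydrated. The log2 fold change was -4.56 against Hydrated (SE 0.587, edgeR adjusted p = 3.53e-06) and -3.65 against Dry (SE 0.570, adjusted p = 9.57e-05), while Dry vs Hydrated, at -0.91, did not pass (adjusted p = 0.145). With library totals Dry vs Hydrated was -2.67 and passed (edgeR adjusted p = 0.000356), and the step from Dry to Rehydrated was -1.79 (adjusted p = 0.0131). Without Hydrated replicate 1 the log2 fold change against Hydrated was -3.65, and both Rehydrated libraries lay below all others.

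**Figure D5:**
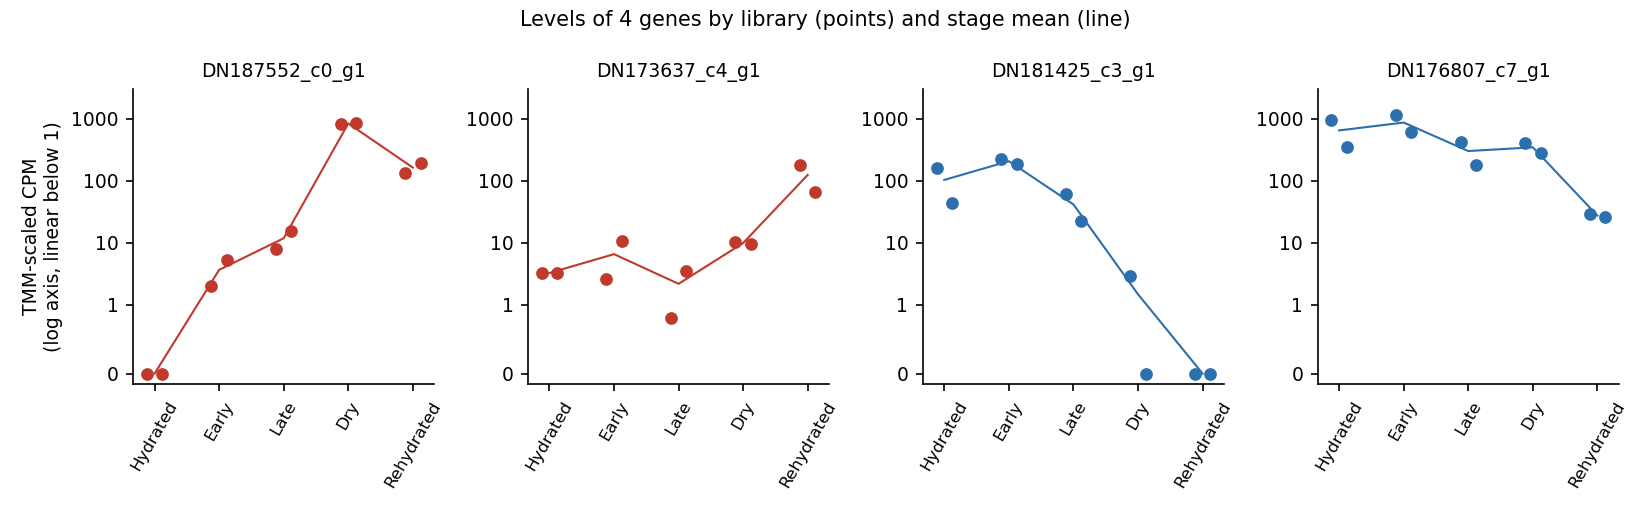
CPM of 4 genes in each library (points) and as stage means (lines) over the 5 stages, on a log axis that is linear below 1. From left to right, a gene at 0 in Hydrated that reaches 835 CPM in Dry and 162 in Rehydrated, a gene that rises to 124 CPM only in Rehydrated, a gene at 0 in Rehydrated, and a gene at 344 CPM in Dry and 27.2 in Rehydrated.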

How the data were processed

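RNA-seq was made from 2 libraries at each of 5 stages, after removal of ribosomal RNA with a commercial kit and 105 custom oligos, per the labels' protocols. The submitters' processing notes name CASAVA 1.4, Trimmomatic 0.35, Bowtie2 2.2, RSEM 1.2.28 and DESeq2. The authors deposited expected counts per assembled gene and a length-corrected, TMM-normalized expression signal. Expected counts were rounded; genes were kept with filterByExpr at a minimum count of 10, which left 98.34% of the counts. All 10 libraries were fitted with 1 term per stage in edgeR 4.0.16 (R 4.3.3; quasi-likelihood test, TMM, Benjamini-Hochberg adjusted p under 0.05). The common biological coefficient of variation was 28.6%. The alternatives include limma 3.58.1 on log2 signal and DESeq2 1.42.0, and the scripts were tested on simulated counts. Libraries held between 644705 and 1917825 counts. With counts in tested genes and TMM factors, 3 counts correspond to between 1.07 and 4.70 CPM, and floors cover counting error only. Within a stage no libraries agreed within sampling noise. The named genes are, per direction, the largest fold change among genes also called in Dry and among genes called against Dry but not in Dry vs Hydrated, with at least 2-fold, non-overlapping libraries, counts averaging 50 or more in Hydrated and Rehydrated together, and the same call under 4 scalings. The comparison, classes and lists were chosen with earlier results of these data known. Gene lists by function could not be matched to the identifiers and are not used here.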

Additional observations from a re-analysis of the deposited data

Results flagged for a closer look

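For 3 of the named genes the difference from Hydrated was unequal in Dry and in Rehydrated, by edgeR's test of Rehydrated against Dry. For TRINITY_DN173637_c4_g1 and TRINITY_DN176807_c7_g1 this was set by the choice, since they were picked among genes that pass that test. TRINITY_DN187552_c0_g1 had a Rehydrated minus Dry difference of -2.37 on the log2 scale (edgeR adjusted p = 0.000427), with both Rehydrated libraries below both Dry libraries; with library totals it was -0.54 and did not pass (edgeR adjusted p = 0.225). TRINITY_DN173637_c4_g1 had a difference of 3.64 (edgeR adjusted p = 9.82e-05), and 5.64 with library totals. TRINITY_DN176807_c7_g1 had a difference of -3.65 (edgeR adjusted p = 9.57e-05), and -1.79 with library totals (edgeR adjusted p = 0.0131). The cause of these differences was not tested.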

How the results depend on the processing

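No call of Rehydrated vs Hydrated turned its direction under any of 19 alternatives, which reuse the same libraries. Of 3318 calls, 3284 were kept with RLE, 2393 with library totals, 2237 with DESeq2 and 1612 with limma on log2 signal plus 0.1. A minimum mean of 50 counts, which tests fewer genes, kept 1162. The 4 named genes passed in each alternative that tested them. They had been picked as large differences with the same call under 4 scalings, so this was partly fixed in advance. The counts and medians that moved are given here (counts by over 1.5 times, medians by over the spread between libraries), as genes higher or lower in Rehydrated vs Hydrated that are traced to Dry, not called against Dry, called back, called further, called after rewetting, called in neither step or opposite in Dry, with medians on the log2 scale. Each median is over that setting's own list of called genes. The cause of the moves was not tested. Library totals gave 623 genes higher in Dry vs Hydrated, 5732 genes lower in Dry vs Hydrated, 5870 genes higher in Rehydrated vs Dry and also 221 genes lower in Rehydrated vs Dry, and higher genes with 507 traced to Dry, 375 not called against Dry, 56 called back, 76 called further, 468 called after rewetting, 126 called in neither step and also 82 opposite in Dry. Higher-gene medians were 2.31 in Rehydrated vs Hydrated, 0.97 in Dry vs Hydrated and also 1.31 in Rehydrated vs Dry, and lower genes numbered 544 not called against Dry, 596 called back, 22 called further, 78 called after rewetting, 20 called in neither step and also 0 opposite in Dry under this setting. Lower-gene medians were -2.36 in Rehydrated vs Hydrated, -4.41 in Dry vs Hydrated and also 1.63 in Rehydrated vs Dry under this setting. Upper-quartile factors gave higher genes with 11 called further and also 16 opposite in Dry, and higher-gene medians of 2.09 in Dry vs Hydrated and also 0.016 in Rehydrated vs Dry. Lower genes numbered 37 opposite in Dry, and lower-gene medians were -2.61 in Dry vs Hydrated and also 0.18 in Rehydrated vs Dry under this setting. No filter on low counts gave higher genes with 58 called after rewetting and also 6 opposite in Dry, and higher-gene medians of 2.67 in Dry vs Hydrated and also -0.44 in Rehydrated vs Dry. Lower-gene medians were -2.27 in Rehydrated vs Hydrated under this setting. A minimum mean of 50 counts gave 527 genes higher in Rehydrated vs Hydrated, 776 genes lower in Rehydrated vs Hydrated, 573 genes higher in Dry vs Hydrated, 783 genes lower in Dry vs Hydrated and also 447 genes lower in Rehydrated vs Dry, and higher genes with 403 traced to Dry, 243 not called against Dry, 144 called back, 16 called further, 68 called after rewetting and also 44 called in neither step. Higher-gene medians were 1.87 in Rehydrated vs Hydrated, 2.03 in Dry vs Hydrated and also -0.12 in Rehydrated vs Dry, and lower genes numbered 601 traced to Dry, 314 not called against Dry, 259 called back, 28 called further, 22 called in neither step and also 37 opposite in Dry under this setting. Lower-gene medians were -1.97 in Rehydrated vs Hydrated, -2.96 in Dry vs Hydrated and also 0.54 in Rehydrated vs Dry under this setting. DESeq2 gave 1553 genes lower in Dry vs Hydrated and also 318 genes higher in Rehydrated vs Dry, and higher genes with 2 called further, 50 called after rewetting, 147 called in neither step and also 4 opposite in Dry. Higher-gene medians were 2.99 in Dry vs Hydrated and also -0.78 in Rehydrated vs Dry, and lower genes numbered 809 traced to Dry, 703 not called against Dry, 63 called back and also 168 called in neither step under this setting. Lower-gene medians were -2.29 in Rehydrated vs Hydrated, -2.52 in Dry vs Hydrated and also -0.16 in Rehydrated vs Dry under this setting. limma on log2 signal plus 1 gave 928 genes higher in Rehydrated vs Hydrated and also 1466 genes higher in Rehydrated vs Dry, and higher genes with 623 traced to Dry, 197 called back, 3 called further and also 159 called in neither step. Higher-gene medians were 2.41 in Dry vs Hydrated, and lower genes numbered 211 called back, 174 called in neither step and also 37 opposite in Dry under this setting. Lower-gene medians were -2.26 in Rehydrated vs Hydrated and also -2.58 in Dry vs Hydrated under this setting. limma on log2 signal plus 0.1 gave 547 genes higher in Rehydrated vs Hydrated, 1141 genes lower in Rehydrated vs Hydrated, 1272 genes higher in Dry vs Hydrated and also 883 genes lower in Rehydrated vs Dry, and higher genes with 467 traced to Dry, 317 not called against Dry, 148 called back, 2 called further, 22 called after rewetting, 55 called in neither step and also 3 opposite in Dry. Higher-gene medians were 2.53 in Rehydrated vs Hydrated, 3.27 in Dry vs Hydrated and also -0.72 in Rehydrated vs Dry, and lower genes numbered 654 not called against Dry, 128 called in neither step and also 24 opposite in Dry under this setting. Lower-gene medians were -2.58 in Rehydrated vs Hydrated, -2.68 in Dry vs Hydrated and also -0.12 in Rehydrated vs Dry under this setting. A fit of Hydrated, Dry and Rehydrated gave higher-gene medians of 2.17 in Dry vs Hydrated and also -0.095 in Rehydrated vs Dry, and lower-gene medians of -2.17 in Rehydrated vs Hydrated and also -2.57 in Dry vs Hydrated. The replicate block gave higher genes with 11 called further, and lower genes with 121 opposite in Dry. Lower-gene medians were -2.01 in Rehydrated vs Hydrated and also -2.31 in Dry vs Hydrated under this setting. Thinning to equal depth gave 774 genes lower in Rehydrated vs Dry, and higher genes with 227 called back and also 9 called further. Higher-gene medians were 2.28 in Rehydrated vs Hydrated, 2.13 in Dry vs Hydrated and also 0.11 in Rehydrated vs Dry, and lower genes numbered 24 called further, 100 called after rewetting and also 26 opposite in Dry under this setting. Lower-gene medians were -2.21 in Rehydrated vs Hydrated, -2.99 in Dry vs Hydrated and also 0.44 in Rehydrated vs Dry under this setting. Genes with whole counts alone gave higher genes with 3 called further, and higher-gene medians of 2.07 in Dry vs Hydrated and also -0.046 in Rehydrated vs Dry. Lower-gene medians were -2.00 in Rehydrated vs Hydrated and also -2.37 in Dry vs Hydrated under this setting. Rehydrated against Hydrated replicate 2 with Dry against the other library gave 645 higher and 804 lower genes traced to Dry. With 1 library left out, the ranges were 791 to 1518 genes higher in Rehydrated vs Hydrated, 1095 to 1727 genes lower in Rehydrated vs Hydrated, 1584 to 2506 genes lower in Dry vs Hydrated, 281 to 622 genes higher in Rehydrated vs Dry and also 856 to 1347 genes lower in Rehydrated vs Dry. Leave-one-out ranges were higher genes with 655 to 999 traced to Dry, 379 to 700 not called against Dry, 263 to 315 called back, 2 to 10 called further, 47 to 86 called after rewetting, 85 to 576 called in neither step and also 4 to 18 opposite in Dry. Leave-one-out ranges were lower genes with 807 to 1076 traced to Dry, 707 to 981 not called against Dry, 69 to 89 called back, 16 to 60 called further, 105 to 160 called after rewetting, 125 to 541 called in neither step and also 5 to 153 opposite in Dry. Leave-one-out ranges were higher-gene medians of 2.16 to 2.73 in Rehydrated vs Hydrated, 2.22 to 3.36 in Dry vs Hydrated and also -0.72 to -0.0551 in Rehydrated vs Dry. Leave-one-out ranges were lower-gene medians of -2.70 to -2.10 in Rehydrated vs Hydrated, -2.77 to -2.30 in Dry vs Hydrated and also -0.39 to 0.26 in Rehydrated vs Dry. Replicate numbers mark no shared origin in the labels, and deviations of same-numbered Hydrated and Rehydrated libraries correlated at -0.08, so the replicate block is only an alternative, with 1573 higher and 1883 lower genes in Rehydrated vs Hydrated. The low depth of Rehydrated limits the detection of falls from low levels.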
